A study of Ogataea parapolymorpha DL-1 with 4 samples.

Results

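The transcript levels of wild-type Ogataea parapolymorpha DL-1, a methylotrophic yeast, were compared between B medium, labelled as sulfur-limited, and the same medium with 0.5 mM cysteine. The comparison took its 2 libraries, 1 per medium, from the 4 of the series by the strain and medium in the labels, so 2 of 4 libraries are described. The wild type carries the leu2 allele with LEU2 restored, and the other strain of the series, set beside it where stated, is a met4 mutant in which LEU2 takes the place of MET4. Cultures began in rich medium (OD600 0.1), reached 0.3, and then spent 2 h in one of the media. Of 5448 rows in the table, 4495 were compared, since 897 span less than 600 bases and 56 longer rows have a mean under 5 FPKM over the 4 libraries. Each medium has 1 library of each strain, so there is no replicate check. No test was made, and a gene was counted as higher or lower when the difference of log2(FPKM + 1) reached 1 in size, a 2-fold difference. FPKM are fragments counted per length of transcript and per total of mapped fragments. They keep no depth, so the counting error is unknown. All values in pairs below are wild-type FPKM, first in B medium and then with cysteine, and all differences are B medium minus cysteine on the log2(FPKM + 1) scale, which understates the change of low genes.

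Yeasts build cysteine and methionine from sulfate, which is imported, activated with ATP and reduced to sulfide before it is joined to a carbon skeleton. That skeleton derives from homoserine in budding yeast. In budding yeast the activator Met4 switches these genes on when cysteine is scarce, and cells can then also draw sulfur from sulfonates, sulfate esters and peptides. Cysteine and methionine feed glutathione, iron-sulfur clusters and S-adenosylmethionine, the donor of methyl groups in lipid, RNA and protein methylation. Cysteine also binds copper and other metals.

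The row zip1 (HPODL_03459), named after a fission yeast factor that resembles Met4, had 485 and 202 FPKM in the wild type, whereas the mutant libraries both list it at 0. LEU2 (HPODL_02130) had 403 and 396 FPKM in the wild-type libraries. The libraries differ in makeup. The median over compared genes was 67.0 FPKM in B medium and 58.5 FPKM with cysteine, while the rows under 600 bases held 71.4% of the FPKM sum in B medium and 62.4% with cysteine. The neighbouring rows TAR1 (HPODL_05380) and HPODL_05381 held 3.76% and 1.88% of FPKM multiplied by span in the cysteine library, against 0.288% and 0.132% in B medium. In the mutant libraries they held 0.158% and 0.0435% with cysteine, against 0.154% and 0.0629% in B medium. In budding yeast TAR1 lies within the ribosomal RNA repeat. Whether this makeup bears on the differences below was not tested.

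Across the 4495 compared genes, 1003 (22.3%) were at least 2-fold higher in B medium, and 572 (12.7%) were lower by the same margin. These shares are the background for every list below. The called genes were thus 63.7% higher, but only 38.2% higher (618 higher, 1000 lower) once each library was rescaled to the same sum over all rows, so the balance of directions depends on the scaling. The median difference was 0.18, with quartiles of -0.44 and 0.87, and rescaling to the same sum shifted it by -0.46. List medians are therefore to be read against 0.18. The tails were long, with 364 genes (8.1%) higher by 4-fold or more, 158 (3.52%) lower by 4-fold or more, and a range from -8.38 to 12.01. The 5 rows just above the minimum mean, at 5.05 to 5.46 FPKM, had differences from -0.56 to 2.92, and the 5 just below it, at 4.57 to 4.90 FPKM, from -0.34 to 1.75. The 5 rows of 600 bases had differences from -1.27 to 0.78 and the 5 rows of 597 to 599 bases from -3.42 to 1.55.

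**Figure D1:**
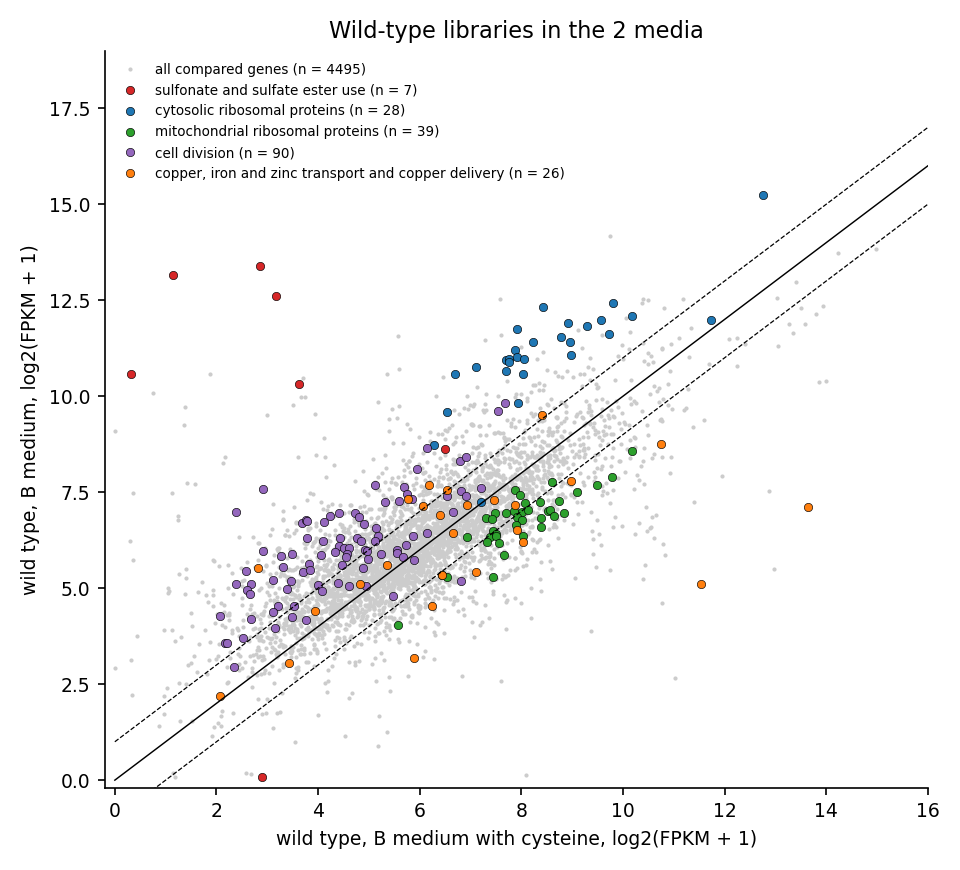
Each point is a gene, with log2(FPKM + 1) in the wild type with cysteine on the horizontal axis and in B medium on the vertical axis; the solid line marks equality and the dashed lines a 2-fold difference. Sulfonate genes and cytosolic ribosomal protein genes lie above the upper line with 3 exceptions (1 JLP1 row, RPL10 and 1 RPL8B row), mitochondrial ribosomal protein genes lie below equality, cell division genes mostly above it and CTR1 and FRE7 of the metal list far below it.

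Genes that free sulfur from organic compounds led the comparison. Of the 7 compared rows for sulfonate and sulfate ester use, 6 were at least 2-fold higher in B medium. Their median difference was 9.44 against 0.18 over all genes. The highest level in B medium was that of the sulfonate dioxygenase row HPODL_01978, with 10802 and 6.23 FPKM (10.55). HPODL_05052 and HPODL_05061, of the same product, had 9095 and 1.21 FPKM (12.01) and 1517 and 0.254 FPKM (10.24). With cysteine these enzymes, which oxidise sulfonates to release sulfite, were near the bottom of the scale. The sulfite-releasing budding yeast counterpart JLP1 had 2 rows in opposite directions, HPODL_00207 with 6263 and 8.01 FPKM (9.44) and HPODL_00875 with 0.0550 and 6.43 FPKM (-2.82), the latter low in both libraries. The arylsulfatase atsA (HPODL_00474), which cleaves sulfate esters, had 397 and 89.7 FPKM (2.13) and dmoA (HPODL_05068), named for a bacterial dimethyl-sulfide monooxygenase, 1267 and 11.4 FPKM (6.68). The dioxygenase rows share a name and may split reads between them, which makes each value uncertain. In the mutant the list's median was 1.09.

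The steps of the sulfate pathway were uneven. The permease SUL1 (HPODL_02639) had 1017 and 11.6 FPKM (6.33), the sulfate-activating MET3 (HPODL_03492) 738 and 14.5 FPKM (5.58) and the adenylyl-sulfate kinase MET14 (HPODL_04859) 548 and 41.1 FPKM (3.70). All 3 were at least 4-fold lower with cysteine. The next enzyme, the PAPS reductase MET16 (HPODL_04159) had 117 and 91.4 FPKM (0.35), within 2-fold. The subunits of sulfite reductase were unequal, with MET5 (HPODL_01957) at 2.34 and its partner MET10 (HPODL_04237) at 0.77. The siroheme genes MET1 (HPODL_01899) and met8 (HPODL_05212), which make the cofactor of that enzyme, were at 0.84 and 0.80. HAL21 (HPODL_05289), a phosphatase that removes the adenosine bisphosphate left by PAPS reduction, was at 0.72 and LPZ3C (HPODL_04102), a putative sulfate transporter, at -0.96. In total 4 of 10 members were at least 2-fold higher and 0 lower (median 0.82). In the mutant MET5, MET1 and MET10 stood at -0.71, -1.47 and -2.41, all on the other side of 0. MET14, met8, SUL1 and MET3 were at least 2-fold higher there, at 1.85, 1.46, 1.13 and 1.11. MET16, HAL21 and LPZ3C were at 0.30, 0.21 and -1.13 in the mutant.

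Beyond sulfide, the members that were higher belong to the methyl cycle. The synthase that makes S-adenosylmethionine, sam1 (HPODL_00414), had 3086 and 193 FPKM (3.99) and the methionine synthase MET6 (HPODL_00855) 1210.2 and 139 FPKM (3.11). SAH1 (HPODL_02927), which hydrolyses S-adenosylhomocysteine, had 1579.9 and 404 FPKM (1.97) and MET13 (HPODL_02993), which makes the methyl folate used by methionine synthase, 106 and 26.7 FPKM (1.95). These 4 were the members at least 2-fold higher among 13, and the list median was -0.03. The cysteine synthase row HPODL_05065 had 480.0 and 1206 FPKM (-1.33) and the homocysteine methyltransferase mmuM (HPODL_00793) 83.2 and 178 FPKM (-1.09), the 2 members at least 2-fold lower in B medium. The other 7 were within 2-fold. The second methylenetetrahydrofolate reductase, MET12 (HPODL_00022), was at 0.70 and the folylpolyglutamate synthase MET7 (HPODL_03250) at -0.03. The cystathionine gamma-synthase MET7_SCHPO (HPODL_01631) and the cystathionine beta-lyase met-2 (HPODL_01286), of the route between cysteine and homocysteine, were at -0.06 and -0.42, and the homoserine acetyltransferase MET2 (HPODL_02823) at -0.45. The cysteine synthase rows cysB (HPODL_02013) and OAS-TL (HPODL_04009) were at 0.63 and -0.64. MET2 and met-2 were at 1.80 and 1.56 in the mutant, and sam1, MET6, SAH1 and MET13 at -0.27, 1.15, 0.18 and -0.34. Genes that use or recycle the products of this cycle, are set beside them here and were chosen after their values were seen. OPI3 (HPODL_00058), which adds the last methyl groups to phosphatidylcholine, had 5889 and 189 FPKM (4.95). The adenosine kinase ADO1 (HPODL_02448), which removes adenosine left by SAH1, had 573 and 94.8 FPKM (2.58), and the mitochondrial one-carbon enzyme MIS1 (HPODL_02829) had 255 and 37.4 FPKM (2.74). OPI3, ADO1 and MIS1 stood at 0.17, -0.02 and -0.85 in the mutant. SPE2 (HPODL_04966), the S-adenosylmethionine decarboxylase, had 105 and 10.9 FPKM (3.16). The adjacent spermidine synthase row spe-3 (HPODL_04967) had 345.7 and 56.5 FPKM (2.59), while the polyamine oxidase FMS1 (HPODL_01779) had 243 and 3981 FPKM (-4.03). In the mutant SPE2, spe-3 and FMS1 stood at 2.54, 1.34 and -1.99.

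Of the 20 highest genes, 8 sit near each other at the end of chromosome II. The last 22 compared rows of chromosome II (positions 949375 to 990573 as the table gives them, HPODL_05051 to HPODL_05071) held 19 rows at least 2-fold higher in B medium and 1 lower, with a median of 4.95 in the wild type and 0.50 in the mutant. They include the dioxygenases HPODL_05052 and HPODL_05061, the monooxygenase FMO GS-OX1 (HPODL_05054, 547 FPKM in B medium and listed at 0 with cysteine), liz1 (HPODL_05053, whose name is that of a pantothenate carrier, 1077 and 0.673 FPKM, 9.33) and the SEO1 transporter rows HPODL_05067 and HPODL_05071 (6.23 and 8.32). Oxygenase rows named for other substrates lay among them, such as nahG (HPODL_05069, 1539.5 and 40.1 FPKM, 5.23) and ANS (HPODL_05070, 1677 and 47.2 FPKM, 5.12). The 3 exceptions interrupt the stretch rather than end it. They are DAL4 (HPODL_05056, -0.77), gnl (HPODL_05057, 0.70) and the cysteine synthase row cysB (HPODL_05065, -1.33). The stretch starts at HPODL_05051, the first row of a run in which every row was at least 2-fold higher. Its border therefore follows the differences that are counted.

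**Figure D2:**
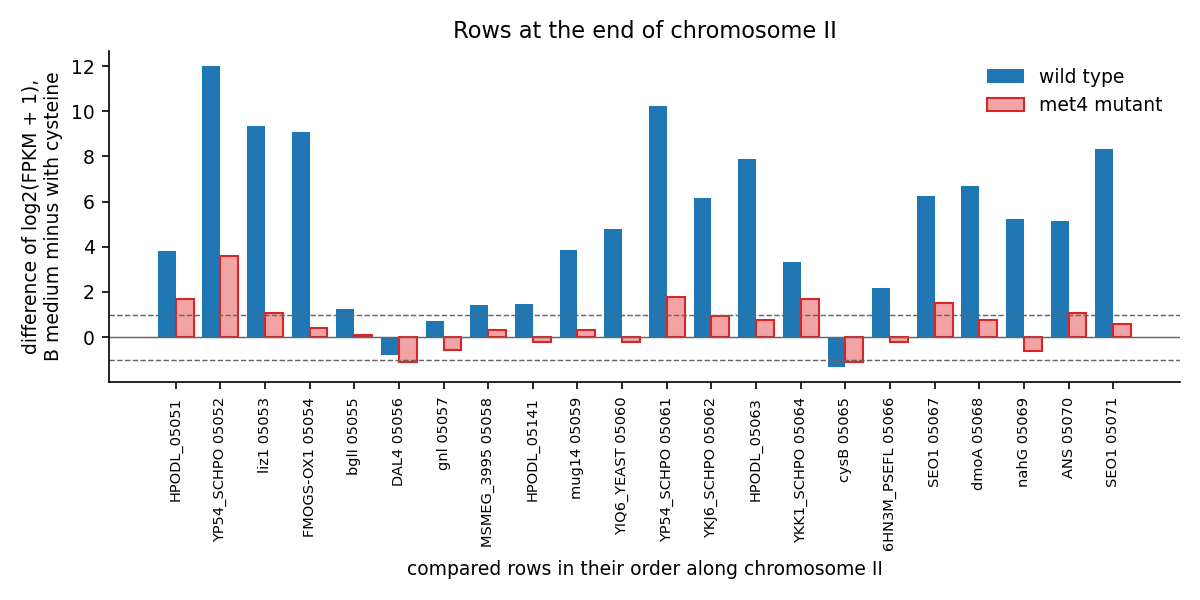
Bars give the difference of log2(FPKM + 1), B medium minus cysteine, for the 22 compared rows at the end of chromosome II in their order, in the wild type and the met4 mutant, with dashed lines at a 2-fold difference. The wild type has 19 bars above the upper line and the mutant 7.

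Across the genome there were 16 runs of at least 5 neighbouring compared rows that were all at least 2-fold different in 1 direction, 14 higher and 2 lower, and the end of chromosome II held 3 of them. A run at the end of chromosome VI (HPODL_01978 to HPODL_01983) joined the dioxygenase HPODL_01978 to a clavaminate synthase-like row, Y3136_ARATH (HPODL_01980, 178 and 0.273 FPKM, 7.14), and a second monooxygenase, FMO GS-OX5 (HPODL_01981, 309 and 70.03 FPKM, 2.13). On chromosome II, HPODL_04545 to HPODL_04549 repeated the pairing of a clavaminate synthase-like row (HPODL_04546, 94.4 and 12.97 FPKM, 2.77) with a PB1C11.03-like transporter (HPODL_04545, 95.3 and 21.1 FPKM, 2.12) and held the L-pipecolate oxidase fap1 (HPODL_04547, 74.1 and 0.232 FPKM, 5.93). The lower run at the start of chromosome V (HPODL_03768 to HPODL_03775) had 6 rows, headed by HPODL_03768, without a described product, at 0.105 and 273 FPKM (-7.95). In the mutant that row had 7.46 and 170.0 FPKM (-4.34). The other lower run, on chromosome IV (HPODL_01029 to HPODL_01033), included YEA4 (HPODL_01030), a sugar-nucleotide transporter that supplies chitin synthesis in budding yeast, with 96.5 and 893 FPKM (-3.20).

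Among amino acid and nitrogen genes, transport and nitrate use were the most different. The nitrate cluster of chromosome I held the nitrate transporter crnA (HPODL_02387, 879 and 10.4 FPKM, 6.27), the nitrite reductase niiA (HPODL_02386, 212 and 1.69 FPKM, 6.30) and the nitrate reductase YNR1 (HPODL_02384, 109 and 1.38 FPKM, 5.52). All 3 were low with cysteine. The regulator-like row YN25_SCHPO (HPODL_02383), which borders YNR1, went the other way with 43.5 and 861 FPKM (-4.28), and stood at -3.33 in the mutant, where crnA was at -0.38. The ammonium transporter MEP2 (HPODL_03613) had 2835 and 155 FPKM (4.19) and the glutamate synthase GLT1 (HPODL_00613) 163 and 39.7 FPKM (2.01). Of 28 nitrogen rows 11 were at least 2-fold higher and 2 lower, the latter being the urea transporter row dur3-1 (HPODL_04408, -1.21) and lamA (HPODL_01974, -1.87). The list median, 0.47, came to -0.0040 with libraries rescaled to the same sum.

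Of 36 amino acid permease rows, 16 were at least 2-fold higher and 6 lower, with a median of 0.80. With libraries rescaled to the same sum the higher count was 10. The 4 rows named DIP5, a carrier of glutamate and aspartate in budding yeast, were the one set of 4 or more same-named rows, of 16 such sets, in which every row was at least 2-fold higher. Their differences ran from 2.63 to 6.37, and HPODL_00008 had 179 and 1.18 FPKM. Low members included the GAP1 row HPODL_01635, a general permease, with 44.4 and 389 FPKM (-3.10) and the vacuolar transporter VBA5 (HPODL_00920) with 25.95 and 234 FPKM (-3.12). The 5 oligopeptide transporters were also split, 2 higher and 2 lower. OPT2 (HPODL_03723), known in budding yeast as a transporter of glutathione, had 1009 and 12.5 FPKM (6.23), another OPT2 row (HPODL_00173) 23.7 and 208 FPKM (-3.08) and the peptide transporter PTR2 (HPODL_01216) 16.4 and 54.9 FPKM (-1.69). The third OPT2 row (HPODL_00610) was at 1.003 and YGL4_YEAST (HPODL_01579) at -0.94.

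The lowest metal genes were those for copper and iron uptake. Of 26 rows for copper, iron and zinc, 10 were at least 2-fold lower and 6 higher (median -0.19). The copper importer CTR1 (HPODL_01154) had 139 and 12774 FPKM (-6.52) and the metalloreductase FRE7 (HPODL_04299) 33.6 and 2974 FPKM (-6.43), the fourth and the fifth lowest differences of the comparison. The copper pump CCC2 (HPODL_04907), which loads copper into secreted enzymes, had 41.9 and 138 FPKM (-1.69), and the iron permease FTR1 (HPODL_04280) 433 and 1725 FPKM (-1.99). Its partner in budding yeast, the multicopper oxidase FET3, was in 2 rows, one higher (HPODL_04351, 734 and 337 FPKM, 1.12) and one lower (HPODL_01875, 39.8 and 86.2 FPKM, -1.10). The vacuolar iron importer CCC1 (HPODL_01876), next to the lower FET3 row, had 206 and 71.7 FPKM (1.51), and the zinc transporter MSC2 (HPODL_05292) 44.9 and 6.09 FPKM (2.70). The siderophore transporters SIT1 (HPODL_04544 and HPODL_03545) and mirB (HPODL_01763), the reductase FRE3 (HPODL_04953) and the zinc importer ZRT2 (HPODL_05001) were also lower, at -2.72, -1.83, -1.42, -1.71 and -1.20. Higher members, besides MSC2, CCC1 and 1 FET3 row, were SMF2 (HPODL_01772), AIM14 (HPODL_00563) and ZRC1 (HPODL_04192), at 1.56, 1.08 and 1.02. The other 10 lay between -0.71 for YKE4 (HPODL_04848) and 0.49 for ZRT3 (HPODL_00182), and were both CFL1 rows (HPODL_00358 and HPODL_01387), str3 (HPODL_01103), FTH1 (HPODL_04584), mirA (HPODL_00011), slc39a9-a (HPODL_01214), SMF3 (HPODL_00662) and FRE8 (HPODL_04761). In the mutant CTR1, FRE7 and CCC2 stood at -6.63, -5.89 and -1.59.

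Within thiol redox genes, peroxiredoxins and thioredoxin reductases were on opposite sides. PRX1, a mitochondrial peroxiredoxin, had 18571 and 857 FPKM (4.44) at HPODL_02878 and 3015 and 46.5 FPKM (5.99) at HPODL_03023. The manganese superoxide dismutase SOD2 (HPODL_02458) had 1439.5 and 86.5 FPKM (4.04), and the monothiol glutaredoxin GRX4 (HPODL_04047), an iron-sensing protein in budding yeast, 795 and 101 FPKM (2.97). The thioredoxin reductases trxB (HPODL_03801) and TRR1 (HPODL_04814) had 47.4 and 1389 FPKM (-4.84) and 224 and 1278 FPKM (-2.51). Over the 17 compared rows, 6 were at least 2-fold higher and 2 lower. The median of 0.24 was -0.23 with the libraries rescaled to the same sum. SOD2, GRX4 and trxB had mutant differences of 3.69, 3.53 and -4.70, while both PRX1 rows were smaller there, at -0.12 and 1.37.

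Cytosolic and mitochondrial ribosomes were on opposite sides. Of the cytosolic ribosomal protein genes long enough to be compared (28 of 79), 26 were at least 2-fold higher in B medium and 0 lower, with a median of 2.84. RPL5 (HPODL_00846) had 1543 and 102 FPKM (3.90), RPS9A (HPODL_02805) 5111 and 345 FPKM (3.88) and RPS6 (HPODL_00492) 3447 and 239 FPKM (3.85). The exceptions were RPL10 (HPODL_00277, 4066 and 3424 FPKM, 0.25) and one of the RPL8B rows (HPODL_00751, 152 and 148 FPKM, 0.04). The cytosolic ribosomal protein genes were mostly higher in B medium in the mutant too, with RPL5 at 2.81, RPS6 at 2.71 and RPL10 at 1.22. Only RPS13 (HPODL_00785, 0.87) and the same RPL8B row (-0.11) were within 2-fold there. The genes that assemble ribosomes did not share the wild-type difference of the ribosomal proteins. Of 121 ribosome biogenesis rows, 7 were higher and 3 lower, and their median of 0.13 took the other sign under 3 scalings (to -0.34 with the same sum). The asparaginyl-tRNA synthetase DED81 (HPODL_00547, 504 and 157 FPKM, 1.67) was the highest of 19 cytosolic synthetases, of which 2 were higher and 1 lower. Of 41 translation factors 8 were higher and 1 lower, among the former elongation factor TEF1 at HPODL_02694 (2589.9 and 1009.8 FPKM, 1.36), whose more abundant row HPODL_00974 had 6074 and 8361 FPKM (-0.46).

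Of 70 mitochondrial ribosomal protein genes, 39 were compared, and 28 were at least 2-fold lower and 0 higher. All 39 differences were below 0 (median -1.14, from -2.14 to -0.32). MRP4 (HPODL_01925), of the small subunit, had 38.5 and 174 FPKM (-2.14) and MRPL6 (HPODL_01492), of the large one, 124 and 459.8 FPKM (-1.88), while RSM25 (HPODL_01401) had 187 and 233 FPKM (-0.32). The remaining mitochondrial translation and RNA genes had 23 of 43 rows lower and 1 higher (median -1.04). The tryptophanyl- and threonyl-tRNA synthetases MSW1 (HPODL_04320) and MST1 (HPODL_00300) had 37.4 and 529 FPKM (-3.79) and 24.7 and 209 FPKM (-3.03). PUF3 (HPODL_00127), which in budding yeast binds messenger RNAs of mitochondrial proteins, had 68.8 and 761 FPKM (-3.45). The exception was the formyltransferase FMT1 (HPODL_05144), which modifies the initiator methionyl-tRNA, with 69.8 and 24.2 FPKM (1.49). In the mutant 39 of 39 mitochondrial ribosomal rows were at least 2-fold lower, with a median of -1.93.

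Mitochondrial import genes also leaned to the lower side. Of 15 import rows, 8 were at least 2-fold lower and 0 higher (median -1.004). The oxidative import receptor mia-40 (HPODL_04892), which forms disulfide bonds in incoming proteins, had 138 and 1397 FPKM (-3.33). The nucleotide exchange factor MGE1 (HPODL_04442) had 319 and 1338 FPKM (-2.07). Its Hsp70 partner SSC1 (HPODL_01106) and the DnaJ protein MDJ1_EMENI (HPODL_03796), both of the chaperone list, had 362 and 1560.1 FPKM (-2.10) and 27.2 and 199.9 FPKM (-2.83). The import pore TOM40 (HPODL_01510) was within 2-fold at -0.23. Chaperones as a whole were balanced, with 6 of 49 higher and 5 lower. Carriers of the inner membrane differed among themselves, with 13 of 29 higher and 6 lower. YHM2 (HPODL_03472) had 341 and 11.2 FPKM (4.81) and the iron carrier MRS4 (HPODL_03627) 115 and 915 FPKM (-2.98).

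Respiratory subunits were mostly higher in B medium, and the assembly factors of complexes III to V mostly lower. All 9 compared rows of complex I and the external NADH dehydrogenases were at least 2-fold higher in B medium (median 2.64), led by ALI1 (HPODL_03393, 441 and 43.5 FPKM, 3.31). Another 14 members were under 600 bases and were not compared. Of 11 compared rows of complexes II to V, 9 were higher (median 1.53). These 11 rows belong to complexes II and III and ATP synthase, and none is a subunit of cytochrome oxidase (complex IV). The succinate dehydrogenase flavoprotein FP (HPODL_02419) had 443 and 49.97 FPKM (3.12) and the ATP synthase subunits ATP1 (HPODL_02577) and ATP2 (HPODL_01806) 2464 and 587 FPKM (2.07) and 3266 and 1133 FPKM (1.53). The cytochrome subunits CYT1 (HPODL_02610) and RIP1 (HPODL_02740), at 0.98 and 0.94, were just within 2-fold.

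Of 18 compared assembly factors of complexes III to V, 15 were at least 2-fold lower and 0 higher (median -1.62). The 4 lowest deliver copper or heme to cytochrome oxidase. SCO1 (HPODL_01367) and COX11 (HPODL_01149), which insert copper, had 93.3 and 1486 FPKM (-3.98) and 88.2 and 675 FPKM (-2.92). COX15 (HPODL_04345) and COX10 (HPODL_01710), which make heme A, had 119 and 1607 FPKM (-3.75) and 84.5 and 742 FPKM (-3.12). MSS51 (HPODL_00525), which in budding yeast is needed to translate the COX1 messenger, had 108 and 715 FPKM (-2.72). MSS51 and CBP3 (HPODL_01365, -1.15) were also counted among the mitochondrial translation and RNA genes above. Factors for other complexes had smaller differences, such as ATP12 (HPODL_00497, 95.6 and 286 FPKM, -1.57) and the Rieske protein chaperone BCS1 (HPODL_00956, 105 and 109 FPKM, -0.05). The split was not clean, as the cytochrome oxidase assembly protein SHY1 (HPODL_02847) was at -1.85 and ATP10 (HPODL_00466), of the ATP synthase, at -1.93. Complex I assembly factors differed from those of complexes III to V, with 2 of 6 higher and 0 lower (median 0.84). In heme synthesis 2 of 8 rows were lower and 1 higher. The first enzyme HEM1 (HPODL_04865) and the last, HEM15 (HPODL_04130), had 77.1 and 677 FPKM (-3.12) and 177 and 829 FPKM (-2.22), while HEM13 (HPODL_01548) had 802 and 152 FPKM (2.40). The mutant showed the assembly factors to a like extent (13 of 18 lower, median -1.84) and complex I to a smaller one (1 of 9 higher, median 0.36), with no test of that difference.

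**Figure D3:**
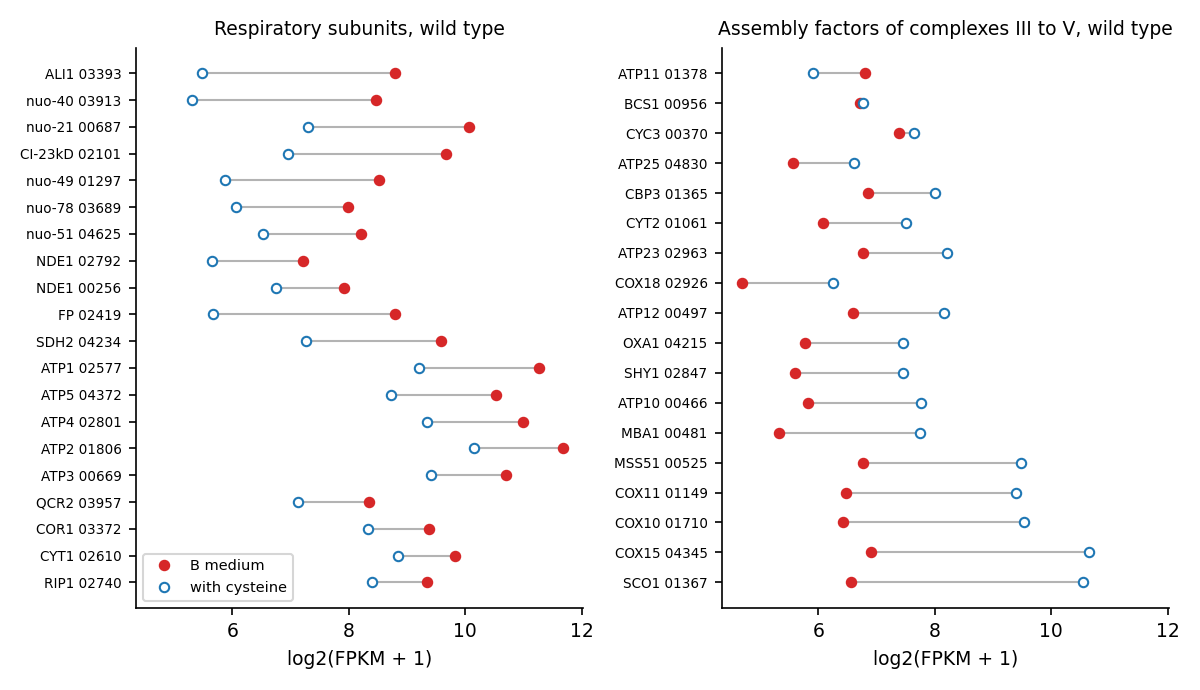
Points give log2(FPKM + 1) of each gene in the wild type in B medium (filled) and with cysteine (open), for respiratory subunits (left) and assembly factors of complexes III to V (right). The filled point lies to the right for all 20 subunit rows and to the left for 17 of 18 assembly factors, ATP11 being the exception.

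In central carbon metabolism most called glycolytic rows were lower in B medium, and most called rows of the tricarboxylic acid and glyoxylate cycles were higher. Of 23 glycolytic and gluconeogenic rows, 12 were at least 2-fold lower and 4 higher (median -1.13). PYK1 (HPODL_01513), which makes pyruvate, had 2527 and 8519 FPKM (-1.75), the aldolase FBA1 (HPODL_03669) 4503 and 14201 FPKM (-1.66) and the mutase GPM1 (HPODL_01332) 5252 and 15732 FPKM (-1.58). The lower rows covered a narrow range, from -1.13 for GPD (HPODL_04957) to -1.75 for PYK1. They included the pyruvate decarboxylase PDC (HPODL_04375), with 3780 and 9879 FPKM (-1.39). The higher rows were hxkA (HPODL_04428, 11.3 and 1.27 FPKM, 2.44), RAG5 (HPODL_04936, 1454 and 447 FPKM, 1.70), both hexokinases, the gluconeogenic PCK1 (HPODL_00509, 280.0 and 65.4 FPKM, 2.08) and PDC6 (HPODL_05133, 7.06 and 1.70 FPKM, 1.58). Of 22 rows of the tricarboxylic acid and glyoxylate cycles, 10 were higher and 1 lower (median 0.98). Aconitase ACO1 (HPODL_02026), an iron-sulfur enzyme, had 1579.7 and 211 FPKM (2.90), IDP2 (HPODL_01327) 52.7 and 2.81 FPKM (3.82) and IDH2 (HPODL_03428) 887 and 134 FPKM (2.72). The citrate synthase CIT (HPODL_04359) was nearly equal in both media at 634 and 619 FPKM, and subunits of pyruvate dehydrogenase were within 2-fold (0.58 for PDA1, HPODL_00436). GPR1 (HPODL_00537), described as a glyoxylate pathway regulator, had 44.1 and 8008 FPKM (-7.47), the third lowest difference. In the pentose phosphate pathway 4 of 13 rows were higher and 0 lower, with ZWF (HPODL_03864) at 0.66 and RPE1 (HPODL_03355) at 1.86.

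Alcohol and aldehyde dehydrogenases spanned a wide range, from -6.16 to 8.73. Of 33 rows 11 were higher and 9 lower. The extremes bear the same name, the aryl-alcohol dehydrogenase YI7E_SCHPO, with 1543 and 2.64 FPKM (8.73) at HPODL_01099 and 23.6 and 1752 FPKM (-6.16) at HPODL_00007. The alcohol dehydrogenase adh (HPODL_04528) had 183 and 7515 FPKM (-5.35), ALD5 (HPODL_00824), a mitochondrial aldehyde dehydrogenase, 4.96 and 192 FPKM (-5.02) and ALD4 (HPODL_00293), another, 744 and 109 FPKM (2.76). Among sugar transporters, 10 of 23 were higher and 4 lower, the highest being rco-3 (HPODL_03366, 51.9 and 0.277 FPKM, 5.37). Methanol genes, which this yeast needs to grow on methanol, had 3 of 7 rows lower and 0 higher. The alcohol oxidase MOX (HPODL_03886) had 30.8 and 32.4 FPKM (-0.07) and the dihydroxyacetone synthase DAS (HPODL_04602) 11.5 and 22.2 FPKM (-0.89), both at low levels. The formate dehydrogenase FMDH (HPODL_03145), which also detoxifies formate, was abundant with 2607 and 5403 FPKM (-1.05).

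Most cell division genes were higher in B medium. Of 90 compared rows, 65 were at least 2-fold higher and 1 lower, against 22.3% and 12.7% over all genes, with a median of 1.52. The G1 cyclins PCL1 (HPODL_03144) and PCL2 (HPODL_02505), partners of the kinase Pho85, had 192 and 6.60 FPKM (4.67) and 127 and 4.25 FPKM (4.604). The kinetochore genes SPC24 (HPODL_04796) and NUF2 (HPODL_01577) had 103 and 11.9 FPKM (3.02) and 106 and 12.7 FPKM (2.96), and the actomyosin ring scaffold IQG1 (HPODL_01826) 61.9 and 6.58 FPKM (3.05). Higher values were found from G1 to mitosis, with the cyclins CLN3 (HPODL_00367) at 2.22 and CLB2 (HPODL_03336) at 1.94 and tubulin TUB1 (HPODL_04315) at 2.13. The kinase CDC28 (HPODL_02864), which the cyclins activate, was within 2-fold at 0.88. The lower row was one of 2 named CDC11, a septin (HPODL_02180, 35.1 and 111 FPKM, -1.64), while the other septin row of that name (HPODL_00059) was at 2.17. Rescaling to the same sum left 48 higher and 2 lower. In the mutant 12 of 90 were higher and 4 lower (median 0.26). In RNA from whole cultures, fewer cells of one stage and less RNA per cell cannot be told apart.

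Replication genes also leaned to the higher side. Of 58 rows for histones and DNA replication 33 were higher and 1 lower (median 1.13). The linker histone HHO1 (HPODL_03112) had 689.6 and 46.1 FPKM (3.88), the origin-licensing factor cdc18 (HPODL_01313) 29.4 and 1.08 FPKM (3.87) and the helicase subunit MCM7 (HPODL_01197) 89.7 and 9.42 FPKM (3.12). The other subunits of the same ring had smaller differences, from 2.14 for MCM4 (HPODL_00647) to 0.81 for MCM3 (HPODL_04438). The origin-binding ORC2 (HPODL_00033) and ORC5 (HPODL_00330) were at -0.15 and -0.24. The lower row was cdc22 (HPODL_04149), named for the large chain of ribonucleotide reductase, with 27.7 and 174 FPKM (-2.60), against 1.17 for RNR1 (HPODL_01654). DNA repair genes were near or below the background, with 7 of 44 higher and 6 lower. The nuclease EXO1 (HPODL_02487) had 35.1 and 2.27 FPKM (3.46), whereas the nucleotide excision repair genes RAD7 (HPODL_00556), RAD14 (HPODL_03131) and RAD16 (HPODL_02433) stood at -2.35, -2.06 and -1.88.

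**Figure D4:**
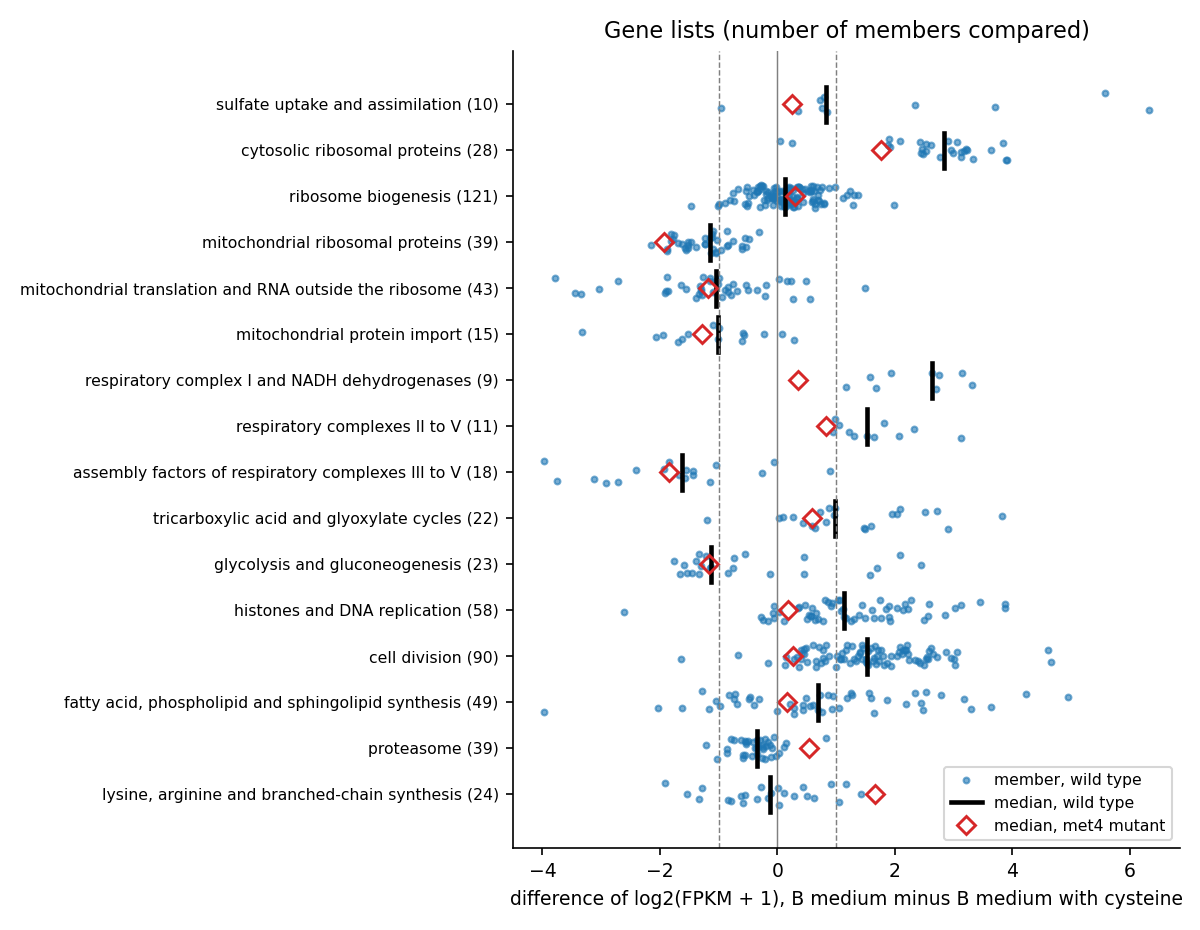
Each row is a gene list, points are the wild-type differences of log2(FPKM + 1) of its compared members, bars their medians and diamonds the medians of the same lists in the met4 mutant; dashed lines mark a 2-fold difference. Cytosolic ribosomal, respiratory and cell division medians lie above 1 and mitochondrial ribosomal, assembly factor and glycolysis medians below -1, while complex I and cell division medians are nearer to 0 in the mutant.

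Lipid and cell wall genes had larger shares of higher rows than all genes, and sterol genes a share near that of all genes. Of 49 rows for fatty acid, phospholipid and sphingolipid synthesis, 19 were higher and 6 lower (median 0.69). After OPI3, the highest was a delta-12 fatty acid desaturase (FAD12_MORAP, HPODL_03473) with 817 and 42.6 FPKM (4.23), followed by the long-chain base transporter RSB1 at HPODL_00401 with 176 and 13.3 FPKM (3.63). The desaturase OLE1 (HPODL_01464), which makes oleic acid, had 2494 and 254 FPKM (3.29) and the fatty acid synthase FAS1 (HPODL_04992) 266 and 28.4 FPKM (3.18). Other rows named RSB1 (HPODL_00400 and HPODL_00473) were at 1.25 and -1.28, and another OLE1 row (HPODL_04741) at -0.01. The lowest were PGC1 (HPODL_01799), which degrades phosphatidylglycerol, with 89.3 and 1417 FPKM (-3.97), and the sphingolipid hydroxylases SCS7 (HPODL_04477) and SUR2 (HPODL_04362) with 235.2 and 962 FPKM (-2.03) and 319 and 979 FPKM (-1.62). In sterol synthesis 9 of 34 rows were higher and 3 lower. The oxygen-using enzymes ERG25 (HPODL_02511) and ERG11 (HPODL_03880) had 622 and 52.7 FPKM (3.54) and 363 and 76.3 FPKM (2.24), the steryl ester hydrolase YEH2 (HPODL_01766) 35.7 and 4.69 FPKM (2.69) and the early enzyme ERG13 (HPODL_03732) 215 and 44.5 FPKM (2.24). The regulator-like ECM22 (HPODL_03051) was the lowest member, with 39.6 and 199 FPKM (-2.30), and the list median of 0.22 became -0.25 with the libraries rescaled to the same sum.

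Of 86 cell wall rows 31 were higher and 7 lower (median 0.60), with 19 higher when rescaled to the same sum. The glucanase-like SCW4 (HPODL_02733) had 351 and 14.6 FPKM (4.49), the mannose-6-phosphate isomerase PMI40 (HPODL_00814) 297 and 18.99 FPKM (3.90) and the glucan-elongating GAS5 (HPODL_01343) 158 and 12.7 FPKM (3.53). The chitin synthase activator SKT5 (HPODL_03860) had 17.6 and 292 FPKM (-3.98) and the chitin deacetylase cda1 (HPODL_00877) 3.98 and 41.96 FPKM (-3.11). The glycosyltransferase name HOC1 covers 7 compared rows, of which 5 were higher and 1 lower, from -1.01 to 2.66.

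Most proteasome genes were within 2-fold between the media. Of 39 proteasome rows 37 were within 2-fold and 2 lower, PUP1 (HPODL_00690, 613 and 1427 FPKM, -1.22) and SCL1 (HPODL_04198, 357 and 729 FPKM, -1.03). The list median was -0.35 in the wild type and 0.53 in the mutant, against 0.18 and 0.06 over all compared genes. RPN4 (HPODL_02538), the activator of proteasome genes in budding yeast, had 248 and 1241 FPKM (-2.32). Of 49 ubiquitin ligase and adaptor rows 11 were lower and 3 higher, with the arrestin ALY2 (HPODL_04638) at 8.29 and 66.1 FPKM (-2.85) and the ligase syvn1 (HPODL_03575), of the endoplasmic reticulum, at 76.99 and 328 FPKM (-2.08). HAC1 (HPODL_01520), the activator of the unfolded protein response, had 584 and 2679 FPKM (-2.20). Vesicle traffic had 22 of 140 rows higher and 6 lower, which is near or below the background, the receptor VPS10 (HPODL_04101, 17.8 and 163 FPKM, -3.12) being among the lower. Nuclear pore and transport genes had 7 of 46 higher and 0 lower.

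Regulators were mixed. Of 135 transcription factor rows 28 were higher and 21 lower, close to the background in the first direction. MET32 (HPODL_01443), through which budding yeast Met4 reaches its targets, had 139 and 17.2 FPKM (2.94), the phospholipid repressor OPI1 (HPODL_04940) 262 and 67.8 FPKM (1.93) and ADR1 (HPODL_00650), an activator of nonfermentative genes, 165 and 42.4 FPKM (1.93). The lower ones included the calcium-responsive CRZ1 at HPODL_00714 (23.5 and 137 FPKM, -2.50) and the heme-responsive HAP1 (HPODL_04316, 36.5 and 181 FPKM, -2.28). The name CRZ1 covers 5 compared rows, of which 2 were lower and 0 higher, from -2.50 to 0.42. Of 91 protein kinases 22 were higher and 5 lower, with the p21-activated kinase CLA4 (HPODL_03988) at 64.99 and 6.71 FPKM (3.10) and RTK1 (HPODL_05077) at 28.8 and 112 FPKM (-1.92). In autophagy, 3 of 23 rows were lower, among them the pexophagy receptor ATG30 (HPODL_02312, 184 and 782 FPKM, -2.08), and ATG25 (HPODL_01515), another pexophagy gene of this genus, was the 1 higher with 47.1 and 3.16 FPKM (3.53).

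Genes for the synthesis of other amino acids showed few 2-fold differences in the wild type. Of 24 rows for lysine, arginine and branched-chain synthesis, 3 were higher and 4 lower (median -0.13), whereas in the mutant 18 were higher and 0 lower (median 1.66) against a background of 12.7% higher and 11.4% lower there. The homocitrate synthase LYS21 was in 2 rows, HPODL_02806 with 826 and 2413 FPKM (-1.55) and HPODL_04767 with 584 and 414 FPKM (0.50). In the mutant HPODL_02806 had 4203 and 1143 FPKM (1.88). Of 42 rows for the remaining amino acids, 4 were higher and 3 lower in the wild type and 20 higher and 1 lower in the mutant. The threonine aldolase GLY1 (HPODL_00754) had 344 and 1967 FPKM (-2.51) and the aromatic aminotransferase ARO9 (HPODL_02093) 519 and 85.8 FPKM (2.58). Of 18 thiamine, pyridoxine and biotin rows 6 were higher and 4 lower. BUD16 (HPODL_05204), a pyridoxal kinase, had 110.2 and 8.97 FPKM (3.48), the pyridoxal reductase plr1 (HPODL_00715) 17.9 and 73.7 FPKM (-1.99) and the abundant thiamine pyrimidine synthase THI13 (HPODL_01785) 3769.9 and 12269 FPKM (-1.70).

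The 20 lowest differences, from -8.38 to -4.03, included 8 rows without a described product, against 2 among the 20 highest (6.14 to 12.01). Among the highest, the transporter-like YIQ6_YEAST (HPODL_03496) had 1427 and 12.01 FPKM (6.78) and a second DIP5 row (HPODL_03243) 307 and 3.35 FPKM (6.14). HPODL_01453, undescribed, was the lowest of all with 5.30 and 2095 FPKM (-8.38). Besides GPR1, CTR1, FRE7, trxB, FMS1, YN25_SCHPO and the dehydrogenases above, the described low rows were a PB10D8.04c-like transporter (HPODL_05350, 36.5 and 1348 FPKM, -5.17), the drug antiporter-like YHK8 (HPODL_02922, 78.3 and 1569.7 FPKM, -4.31) and lad1 (HPODL_00863, 0.839 and 35.1 FPKM, -4.30), an arabinitol dehydrogenase. Over all compared genes, 574 lacked a product, of which 147 were higher and 91 lower.

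**Figure D5:**
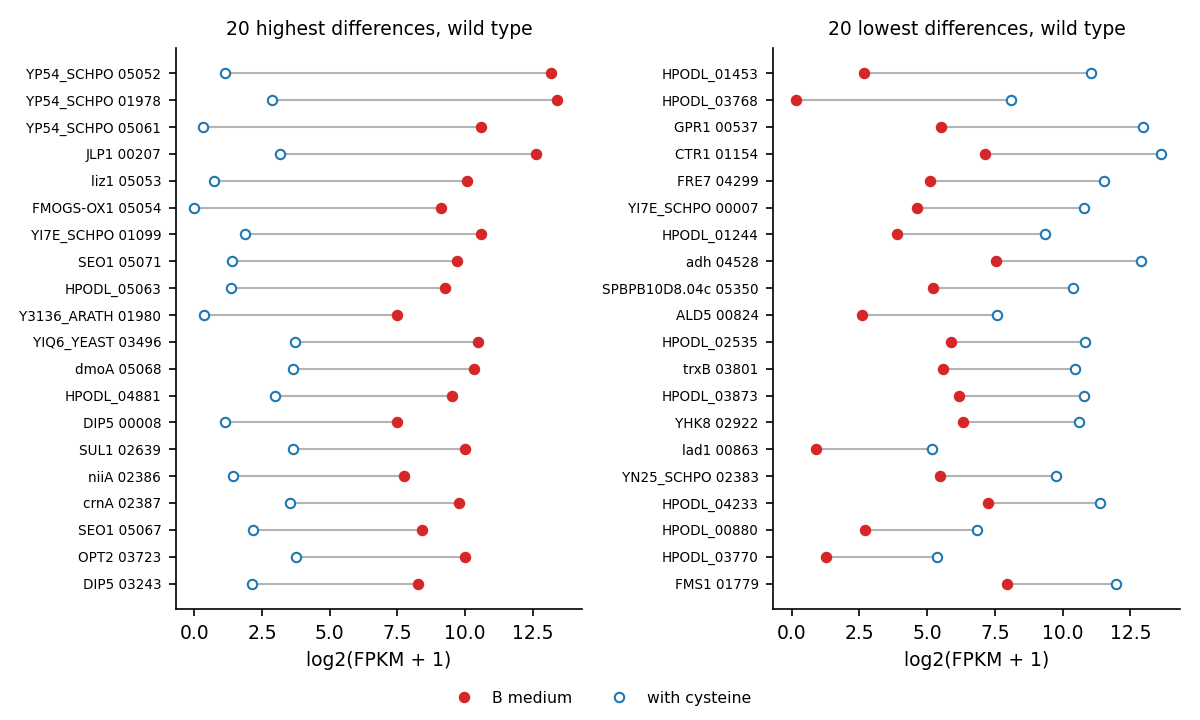
Points give wild-type log2(FPKM + 1) in B medium (filled) and with cysteine (open) for the 20 genes with the highest differences (left) and the 20 with the lowest (right), each labelled by name and the last digits of its locus tag. CTR1 has the highest level with cysteine among the lowest 20, at 12774 FPKM.

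The same media were compared in the met4 mutant, which shares no library with the wild-type comparison. There 569 genes (12.7%) were at least 2-fold higher in B medium and 513 (11.4%) lower, with a median of 0.06. The genes higher in both strains numbered 258, which is 25.7% of those higher in the wild type and 45.3% of those higher in the mutant. The genes lower in both numbered 295, or 51.6% of the wild-type and 57.5% of the mutant ones. Opposite 2-fold differences were found in 32 genes that were higher in the wild type and lower in the mutant, and in 16 the other way. Across the 4495 genes, which are not independent replicates, the differences of the strains had a Pearson r of 0.49 and a Spearman rho of 0.45. The sulfonate dioxygenase HPODL_05052 and the nitrite reductase niiA (HPODL_02386) were at 12.01 and 6.30 in the wild type, against 3.61 and 1.25 in the mutant. CTR1 (HPODL_01154) and SCO1 (HPODL_01367) were at -6.52 and -3.98 in the wild type, against -6.63 and -3.69 in the mutant. The difference between strains was not tested.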

How the data were processed

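RNA was extracted with hot phenol, cleaned on columns and made into Illumina libraries, per the labels' protocols, with 1 library for each strain and medium. The authors deposited FPKM values per gene for the 4 libraries, with a gene name and a description. TopHat, Cufflinks 2.1.1 and Cuffdiff are named in the submitters' processing notes. Not given in the sources used here are the genome build, annotation release, strand setting and filters. Without a known strand setting, overlapping and antisense genes cannot be told apart, and same-named rows can divide reads between them, which leaves each value uncertain. FPKM values keep no depth, so the total reads are unknown, and the precision with them.

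Rows averaging 5 FPKM or more across all 4 libraries, with a span (end minus start plus 1) of at least 600 bases, were compared by the difference of log2(FPKM + 1), with a call at 1 or more in size. No test, p-value or interval was computed, since each group has 1 library. Genes were put in 53 lists by name and description. The members and lists were chosen with earlier results of these data known, and 2 products matched in error were taken out after values were seen. The genes eligible to be named were all members of the sulfonate, sulfate, sulfur amino acid, oligopeptide transport and metal lists, the 20 highest and 20 lowest differences with a described product, and up to 3 of the highest and lowest in each other list. Members named beyond this, such as TUB1, CDC28, MCM3, RNR1 and PDA1, and the genes of chromosomal runs, were chosen after their values were seen. Alternatives changed the pseudocount, both filters, the scaling of the libraries and a trend with gene length. The calculation was tested on simulated data. Python 3.11.15, pandas 2.3.3, numpy 2.4.6 and matplotlib 3.10.9 were used.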

Additional observations from a re-analysis of the deposited data

Results flagged for a closer look

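For 9 named genes the media differed at least 2-fold in opposite directions in the wild type and the met4 mutant. The difference between strains was not tested, since each strain has 1 library per medium. Differences below are B medium minus cysteine on the log2(FPKM + 1) scale.

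In the wild type 6 of them were lower in B medium, and in the mutant these were higher. ARO3 (HPODL_00199), which begins aromatic amino acid synthesis, was at -1.62 in the wild type and 1.60 in the mutant, where its level reached 2123 FPKM in B medium. The homocitrate synthase row LYS21 (HPODL_02806) was at -1.55 and 1.88. The aspartokinase HOM3 (HPODL_03909) was at -1.35 and 1.08, and the ornithine carbamoyltransferase ARG3 (HPODL_04635) at -1.34 and 1.08. The uracil catabolism gene URC4 (HPODL_00309) was at -1.40 and 1.15, and the transporter row STL1 (HPODL_04540), which shares its name with other rows, at -1.37 and 1.12.

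The other 3 were higher in the wild type and lower in the mutant. Y3136_ARATH (HPODL_01980), in the run at the end of chromosome VI, was at 7.14 and -1.83, with 5.32 and 21.5 FPKM in the mutant. The small heat shock gene HSP26 (HPODL_03869) was at 2.06 and -1.64. INP1 (HPODL_01512), which holds peroxisomes in the mother cell in budding yeast, was at 1.56 and -1.06.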

How the results depend on the processing

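No paired analysis was possible because each strain and medium has 1 library, and leaving out a library was not possible for the same reason. Over 364 named genes and 11 alternatives, 3892 differences were recomputed. None changed sign while called, 3795 stayed on the same side of 2-fold, 58 dropped within it and 39 moved past it. With each library rescaled to the same sum, 28 counts of called genes or list members moved by over 1.5 times and 27 did not. There 618 genes were higher and 1000 lower, the median over all genes was -0.28, and the higher members numbered 10 among amino acid permeases and 19 in the cell wall list. The median was 0.00038 with median-of-ratios scaling, where the called genes were 54.5% higher, and 0 with the trend with length taken away, where they were 54.4% higher. With no minimum span the members called were 77 of the cytosolic ribosomal proteins, 21 of complex I, 25 of complexes II to V, 26 assembly factors and 15 import genes. With a span of at least 1000 bases they were 4 cytosolic and 10 mitochondrial ribosomal proteins and 6 assembly factors, since fewer members are that long, and the medians of the carrier and the thiamine, pyridoxine and biotin lists became -0.56 and -0.74. The FPKM sums over all rows were 3.22e+06 in the wild type in B medium and 2.31e+06 with cysteine, and rows under 600 bases held 71.4% and 62.4% of them. With the same sum over rows of at least 600 bases alone, 914 genes were higher and 615 lower (59.8% higher, median 0.10). Why the libraries differ in makeup was not tested. With 1 library per group and no depth, neither biological nor counting error can be given. The 794 rows under 600 bases that pass the minimum mean had a median of 0.28 (30.4% higher, 15.0% lower).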

Other observations

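Several gene groups outside the comparisons above had individual members with large differences in the wild type. Glycogen and stress genes had 3 of 14 higher and 1 lower. The glycogen-targeting phosphatase subunit PPP1R3C (HPODL_00797) had 674 and 41.04 FPKM (4.005) and the glycogen primer Gyg1 (HPODL_02124) 133 and 36.98 FPKM (1.81), while the stress protein DDR48 (HPODL_00285) had 115 and 327 FPKM (-1.50). Among polyamine and acyl-CoA genes, 6 of 15 were higher and 1 lower, with the carnitine carrier CRC1 (HPODL_02892) at 47.4 and 6.84 FPKM (2.63). The multidrug transporters were split, 5 of 22 higher and 7 lower. TPO4 (HPODL_00174), a polyamine transporter, had 302 and 52.3 FPKM (2.51), and the CDR1 row HPODL_04930, a drug efflux pump, 20.6 and 87.6 FPKM (-2.03). The rows named YOR1 stood at 1.63 (HPODL_04837) and -2.21 (HPODL_04463).

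In purine, pyrimidine and one-carbon metabolism, 8 of 46 rows were higher and 4 lower. The uracil salvage gene FUR1 (HPODL_02747) was at 1.42 and the adenine deaminase AAH1 (HPODL_03708) at -1.10. Peroxisome genes had 5 of 20 lower and 1 higher, with the import receptor PEX5 (HPODL_00015) at 52.3 and 145 FPKM (-1.45) and the peroxisome division gene PEX11A (HPODL_04241) at 90.9 and 207 FPKM (-1.17). Transcription and splicing machinery had few calls, with 6 of 39 RNA polymerase rows higher and 1 lower, and 5 of 50 splicing rows higher and 3 lower. The initiation factor of RNA polymerase I, RRN7 (HPODL_03529), was the highest of them with 132 and 16.04 FPKM (2.96). Mating and sporulation genes had 13 of 53 higher and 3 lower, with the kinase FUS3 (HPODL_01048) at 14.8 and 3.48 FPKM (1.82). Among the 6 sulfur regulators, 2 were higher (MET32 and zip1) and 1 lower. The lower was one of the rows for the ubiquitin-conjugating enzyme CDC34, HPODL_05139 with 217 and 444 FPKM (-1.03), and the substrate receptor MET30 (HPODL_00475), which restrains Met4 in budding yeast, had 133 and 153 FPKM (-0.20).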
